A study of Mus musculus with 2 samples.

Results

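The genes described here code for the core of the spliceosome and for the RNA-binding proteins that steer it, and they were followed in mouse tendon cells after mechanical shear. They were chosen by gene symbol alone: all genes whose single symbol in the platform annotation begins with Snrp, Lsm and a digit, Sf3a or Sf3b, Srsf and a digit, Hnrnp, or Prpf and a digit. The rule found 67 genes, all of them measured on both arrays, among 10791 measured genes with a single symbol. They fall into 11 Snrp, 11 Lsm, 8 Sf3, 8 Srsf, 18 Hnrnp and 11 Prpf genes, on 206 spots of the array. RNA of tenocytes sheared for 12 h at 50 rpm was hybridised in Cy5 against RNA of control tenocytes of 12 h in Cy3, and RNA of pooled cells sheared for 6 h in Cy5 against RNA of pooled control cells of 6 h in Cy3. The shear setting of the 6 h cells and the strain and age of the animals are not given in the sources used here. There was 1 two-colour array per time point, so no difference could be tested, no p-value is given, and "higher" and "lower" describe these arrays.

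Splicing removes introns from precursor mRNA. The spliceosome is assembled from small nuclear ribonucleoproteins (snRNPs), each an snRNA wrapped in a ring of Sm or LSm proteins with proteins of its own. The SF3 complexes anchor the U2 snRNP at the branch point, and the Prpf proteins build and remodel the catalytic core. SR proteins (Srsf genes) bind exons and promote their inclusion, whereas hnRNP proteins coat precursor RNA and often act against inclusion. Several SR and hnRNP proteins regulate the splicing of their own transcripts.

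Values are log2 ratios of sheared over control, each array centred on the median of all its spots, and a gene's value is the median of its spots. Base 2 is an assumption. Sheared over control is the likely direction, read from the labelled dyes, and every sign would turn if it were the reverse. Centring removed an array median of -0.323 for 6 h and -0.479 for 12 h, and uncentred values are lower by as much. After centring, the median over all genes was -0.11 at 6 h and -0.14 at 12 h. A gene is called higher or lower from 1.5-fold, a log2 ratio of 0.585. The only error estimate is the SD between different spots of a gene, pooled over 55 of the 67 genes with several spots as 0.402 at 6 h and 0.582 at 12 h, against 0.738 and 0.855 over all genes. That SD says nothing of the spread between cultures. A ratio also cannot separate fewer cells of a type from less RNA per cell.

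The splicing genes as a whole stood a little above the middle of both arrays, and the class medians lay farther apart at 12 h. At 6 h, 26 of 67 genes (38.8%) passed 1.5-fold upward and 4 (5.97%) downward, against 18.2% and 31.3% of all genes. At 12 h, 27 were higher and 10 lower, against 24.4% and 33.1% of all genes. Without centring these counts were 9 higher and 9 lower at 6 h, and 14 higher and 21 lower at 12 h. The median of the 67 genes was 0.41 at both times, and without centring it was 0.087 at 6 h and turned to -0.072 at 12 h. Without centring the median over all genes was -0.437 at 6 h and -0.619 at 12 h. Uncentred shares of all genes are not given here, so uncentred counts have no background beside them.

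Class by class, the Snrp genes had the highest median at both times, 0.80 at 6 h and 1.37 at 12 h, which is 1.74-fold and 2.58-fold. The Srsf genes followed at 6 h with 0.53 but lay at -0.18 at 12 h. The Sf3 genes had medians of 0.36 and 0.41, the Hnrnp genes 0.32 and 0.33, the Lsm genes 0.23 and 0.31, and the Prpf genes 0.05 and -0.21. Without centring the Snrp medians were 0.478 and 0.888 and those of the Srsf genes 0.208 and -0.659. Under that setting the Hnrnp and Lsm medians turned negative at both times, the Sf3 median at 12 h, and the Prpf median at 6 h. The uncentred median over all genes was -0.437 at 6 h and -0.619 at 12 h, and only the Srsf and Prpf medians at 12 h lay below it. With genes of 2 or more spots, or with each print block centred, the 6 h Prpf median was also below 0, at -0.142 and -0.00775.

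**Figure D1:**
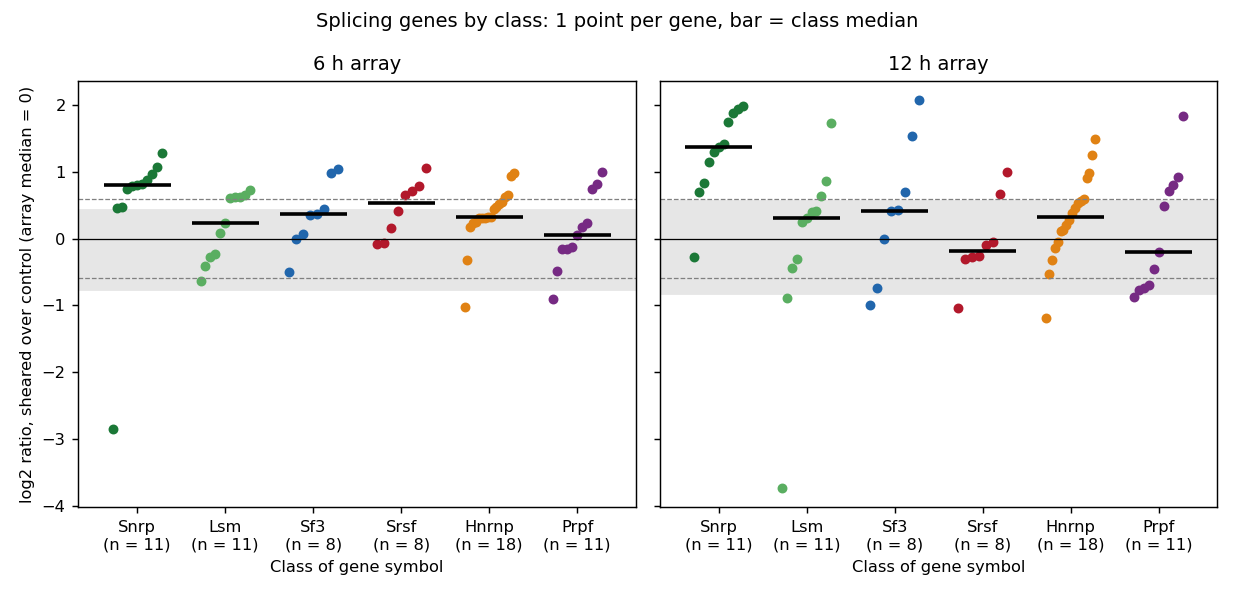
Log2 ratio of sheared over control (y axis, array median at 0) for each of the 67 splicing genes by class (x axis), at 6 h and 12 h. Points are genes, black bars class medians, the grey band the middle 50% of all genes and dashed lines 1.5-fold; the Snrp bar stands at 0.80 and then 1.37, while the Srsf bar goes from 0.53 to -0.18.

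The Sm proteins form the heptameric ring shared by most spliceosomal snRNPs, and their genes read higher in the sheared cells at both times. All 7 Sm genes measured with a single symbol were at least 1.5-fold higher at 12 h, and 6 of 7 at 6 h. The shares of all genes were 24.4% and 18.2%. The median was 0.81 at 6 h and 1.74 at 12 h, or 1.75-fold and 3.33-fold. Without centring it was 0.486 and 1.26, and then 3 of the 7 genes passed 1.5-fold at 6 h and 5 at 12 h. Each of the 7 genes stood higher at 12 h than at 6 h, except that Snrpd1 stood lower at 12 h without centring and with both arrays scaled to equal spread.

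Snrpe, Snrpg, Snrpd2 and Snrpf led the ring. The 2 spots of Snrpe (SmE) stood at 1.34 and 1.20 at 6 h and at 1.89 and 1.97 at 12 h, a gene value of 1.93 or 3.81-fold. The 2 spots of Snrpg (SmG) stood at 0.74 and 1.19 at 6 h and at 1.92 and 2.04 at 12 h. In both genes the spots of the 2 times did not overlap. Snrpf (SmF), on 1 spot, went from 1.06 to 1.74, and Snrpd2 (SmD2), also on 1 spot, from 0.81 to 1.87.

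The remaining Sm genes stood lower. Snrpb, which codes for SmB, had 4 spots between 0.59 and 0.91 at 6 h and between 1.22 and 1.56 at 12 h, again with no overlap. Snrpd1 (SmD1) had 7 spots between -0.29 and 1.31 at 6 h and between -0.26 and 1.12 at 12 h, with gene values of 0.75 and 0.83, so its times overlapped almost fully. The same spot was the lowest on both arrays, and the other 6 were above 0. Snrpd3 (SmD3) had spots at 0.35 and 0.58 at 6 h and at 0.20 and 1.19 at 12 h. It was the only gene of these 7 short of 1.5-fold at 6 h, with a gene value of 0.47. Snrpn, also an Sm gene, was measured only on 3 spots shared with Snurf. Its medians were 0.03 at 6 h and 0.78 at 12 h. With several symbols kept, 6 of 8 Sm genes were higher at 6 h and 8 of 8 at 12 h.

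Among Snrp proteins that belong to a single snRNP, those of the U2 snRNP were at least 1.5-fold higher at both times, though below the Sm ring median at 12 h. Without centring neither passed 1.5-fold at 6 h, as the 3 Snrp genes that did were all Sm genes. Snrpb2, an RNA-binding protein of U2, had 7 spots from 0.62 to 1.16 at 6 h and from 0.08 to 2.01 at 12 h, with gene values of 0.80 and 1.29. Snrpa1, the protein that partners it, stood at 0.93 and 0.81 at 6 h and at 1.11 and 1.19 at 12 h. All spots of both genes were above 0. The lowest and highest 12 h spots of Snrpb2 carry the same clone. The U1 proteins were less uniform: the 3 spots of Snrpc, which steadies U1 on the splice donor, stood at -0.10, 0.46 and 1.21 at 6 h and at -0.38, 1.41 and 2.18 at 12 h.

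Snrpa, which binds a loop of U1 snRNA, was the exception of the class. Its 2 spots, which carry the same clone, stood at -1.61 and -4.08 at 6 h and at 0.08 and -0.62 at 12 h. The gene value of -2.85 at 6 h was the lowest of all 67 genes on that array, but the probe SD was 1.75. At 12 h the gene stood at -0.27, within 1.5-fold.

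With the Snrnp genes, whose symbols the rule does not match, the proteins of single snRNPs were mixed. Of 9 measured at 6 h, 2 (22.2%) were higher and 1 (11.1%) lower, against 18.2% and 31.3% of all genes. Of 10 at 12 h, 4 (40%) were higher and 1 (10%) lower, against 24.4% and 33.1%. The medians of these proteins were 0.33 over the 9 and 0.09 over the 10, which include Snrnp27, measured at 12 h alone. Of the 9 on both arrays, 7 stood higher at 12 h than at 6 h, against 56.6% of all genes, and 2 lower, against 43.4%. Their median difference was 0.28, against 0.12 for all genes. Snrnp70, the U1 protein that contacts SR proteins, stood at 0.27 and 0.32 over 4 spots, and Snrnp200, the helicase that unwinds U4 from U6, at -0.03 and -0.20 on 1 spot. Snrnp40 stood at 0.56 and -0.30, Snrnp48 at -0.33 and -0.13, Snrnp25 at 0.33 and 1.32 on 1 spot, and Snrnp27 at -1.39 on 1 spot at 12 h alone.

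The LSm ring, which binds U6 snRNA and in a related form starts mRNA decay in the cytoplasm, was milder than the Sm ring. Of its 6 measured genes, 4 (66.7%) were higher at 6 h and 3 (50%) at 12 h, against 18.2% and 24.4% of all genes. None of the 6 was lower, against 31.3% and 33.1%, and the medians of the ring were 0.62 and 0.53. Without centring none was higher or lower at 6 h, and 1 was higher and 1, Lsm2, lower at 12 h. With print blocks centred 2 were higher at each time. Lsm6 stood at 0.63 and 0.59 at 6 h and at 0.87 and 0.85 at 12 h, and Lsm8, the subunit particular to the nuclear ring, at 0.70 and 0.76 and then 0.47 and 0.31. Lsm5, on 1 spot, stood at 0.62 and 0.64. The spots of Lsm7 disagreed, at 0.83 and -0.66 at 6 h and at 2.48 and 0.96 at 12 h, and those of Lsm3 stood at -0.56 and 1.02 and then -0.16 and 0.99.

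Lsm2 was the only LSm ring gene below 0 at 12 h. Its 2 spots, from different clones, stood at 0.66 and 0.63 at 6 h and at -0.54 and -0.34 at 12 h. The times did not overlap, although the 12 h value of -0.44 did not pass 1.5-fold.

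LSm-domain proteins outside that ring were mixed. Of 5 genes, 1 was higher and 1 lower at 6 h, against 18.2% and 31.3% of all genes, and none was higher and 2 were lower at 12 h, against 24.4% and 33.1%, so the lower calls are near the background. Lsm14a, a component of cytoplasmic P bodies, had 6 spots from -1.06 to 0.18 at 6 h and from -1.25 to 0.95 at 12 h, with gene values of -0.28 and -0.89. At 12 h, 5 of its 6 spots lay below 0. Lsm11, of the U7 snRNP that processes histone mRNA, stood at -0.64 and then -3.73 on 1 spot, the lowest value of any member at 12 h and without a second spot to set beside it. Its partner Lsm10 had spots at -0.13 and -0.70 at 6 h and at -1.13 and 1.74 at 12 h, on opposite sides of 0. Lsm14b stood at -0.24 and -0.31 on 1 spot, and Lsm12 at 0.61 and 0.24.

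Within SF3b, Sf3b4 and Sf3b5 read higher at both times, and Sf3b1 and Sf3b3 read lower at 12 h. Sf3b5 had 3 spots at 1.25, 0.51 and 1.04 at 6 h and at 1.78, 2.06 and 2.46 at 12 h. Its gene value of 2.06 (4.18-fold) was the highest of all 67 genes at 12 h, and its times did not overlap. Sf3b4, which contacts RNA near the branch point, stood at 1.46 and 0.51 at 6 h and at 2.02 and 1.03 at 12 h. Sf3b6, which touches the branch point adenosine, stood at 0.99 and -0.12 and then 1.69 and -0.31, so that its gene values of 0.44 and 0.69 rest on spots that disagree.

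Sf3b1, the large scaffold of SF3b, stood near 0 at 6 h and lower at 12 h. Its 4 spots stood at -0.01, 0.11, -0.96 and -0.01 at 6 h and at -0.92, -0.91, -1.94 and -1.06 at 12 h. All 4 were below 0 at 12 h, and each stood lower than at 6 h. Sf3b3, another large scaffold protein, had spots at -0.81, -0.20 and -0.50 at 6 h and at -0.74, -0.67 and -0.80 at 12 h, the latter with a probe SD of 0.062. Sf3b2 had 8 spots on both sides of 0, from -0.55 to 0.88 at 6 h and from -0.79 to 1.81 at 12 h, and gene values of 0.06 and -0.01. The SF3a genes Sf3a2 and Sf3a3 stood between 0.35 and 0.42 at both times. In all, 2 of 8 Sf3 genes (25%) were higher and none lower at 6 h, against 18.2% and 31.3% of all genes. At 12 h, 3 (37.5%) were higher and 2 (25%) lower, against 24.4% and 33.1%.

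**Figure D2:**
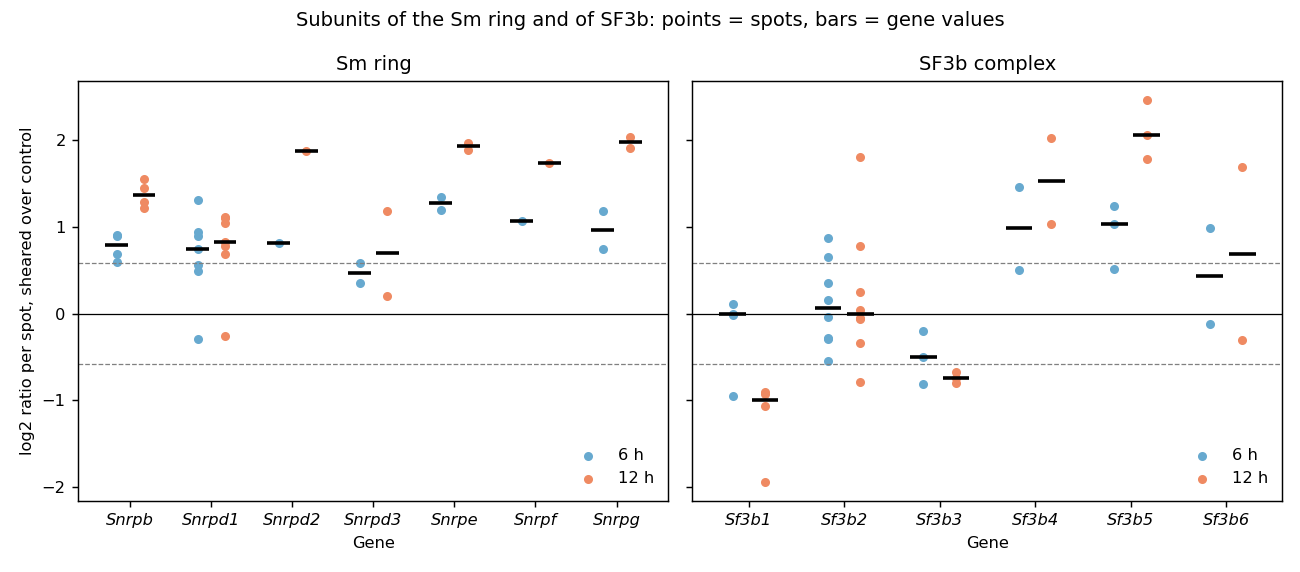
Log2 ratio of sheared over control (y axis) of every spot of the Sm ring genes (left) and SF3b genes (right) at 6 h and 12 h; black bars are gene values and dashed lines mark 1.5-fold. All 7 Sm bars lie above 1.5-fold at 12 h, whereas the SF3b bars spread from -0.99 for Sf3b1 to 2.06 for Sf3b5.

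The Prpf genes were the lowest class at 6 h and spread to both sides at 12 h. At 6 h, 3 of 11 (27.3%) were higher and 1 (9.09%) lower, against 18.2% and 31.3% of all genes. At 12 h, 4 (36.4%) were higher and 4 (36.4%) lower, against 24.4% and 33.1%. The lower calls at 12 h were thus near the background. Without centring 1 was higher and 2 lower at 6 h, and 1 was higher and 6 lower at 12 h, with a 12 h median of -0.686. Prpf8, the protein that cradles the catalytic centre, had spots at -0.60 and -0.36 at 6 h and at -0.79 and -0.75 at 12 h. Prpf6, which bridges the snRNPs of the tri-snRNP, stood at 0.02, -0.29 and -0.16 and then at 0.16, -0.69 and -0.96. Prpf4b, a kinase needed to activate the spliceosome, stood at -0.23, -0.91 and -1.29 at 6 h and at -0.74, -0.26 and -1.20 at 12 h, with every spot below 0. Of the 5 measured Prpf proteins of the tri-snRNP (Prpf3, Prpf4, Prpf6, Prpf8 and Prpf31), 4 were below 0 on both arrays. The exception was Prpf31, at 0.05 and 0.49, with all 4 spots above 0 at 12 h. Of all genes, only 4622 of 10346 were above 0 at 6 h and 4753 of 10731 at 12 h, so values below 0 were common. The medians of the 5 were -0.154 and -0.454, against -0.114 and -0.14 over all genes.

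Other Prpf genes read higher. Prpf39, a U1 snRNP factor, stood at 0.99 and 0.92 and Prpf19, the ubiquitin ligase of the complex named after it, at 0.82 and 0.71, each on 1 spot. Prpf38a had spots at 1.04 and 0.43 at 6 h and at 0.30 and 1.30 at 12 h. Prpf18, a factor of the second catalytic step, stood at 0.17 and then 1.83 on 1 spot. Prpf38b, a relative of Prpf38a, stood at 0.27 and 0.19 at 6 h and at -0.64 and -1.12 at 12 h, with no overlap between the times.

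Among the SR proteins, Srsf3 stood on opposite sides of the control at the 2 times. Srsf3 is the smallest SR protein; it promotes exon inclusion and the export of mRNA, and it regulates an exon of its own transcript. At 6 h its 9 measured spots lay between 0.37 and 0.86, with a median of 0.78 (1.72-fold higher, probe SD 0.15). At 12 h its 10 spots lay between -2.75 and -0.66, with a median of -1.05 (2.06-fold lower, probe SD 0.59). All 9 spots were above 0 at 6 h and all 10 below 0 at 12 h, so the times did not overlap.

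The Srsf3 reading does not rest on a single spot or clone. The 10 spots carry 10 different clone accessions and lie in 8 print blocks. For the 9 spots measured at both times, the 12 h value lay below the 6 h value in 9 of 9, by -1.30 to -2.11. The lowest 12 h spot, at -2.75, was not measured at 6 h, and without it the 12 h median was -0.99 and the probe SD 0.20. Srsf3 was the only member at least 1.5-fold higher at 6 h and 1.5-fold lower at 12 h, which held for 0.603% of all genes. Among 564 genes with 5 or more spots on both arrays, it was the only such gene and had the lowest difference of 12 h minus 6 h, -1.83, followed by Naa15 at -1.75. Without centring Srsf3 stood at 0.456 and -1.52, so its 6 h value no longer passed 1.5-fold.

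The other SR genes differed less between the times. Srsf5 had 4 spots from 0.70 to 1.37 at 6 h and from 0.46 to 0.86 at 12 h, all above 0, with gene values of 1.06 and 0.67. Srsf2 had 9 spots from -0.08 to 1.12 at 6 h and from 0.01 to 1.497 at 12 h, with gene values of 0.71 and 0.99, and stood higher at 12 h than at 6 h, unlike the other 7 Srsf genes. With 3 further spots that it shares with Mettl23, it stood at 0.66 and 0.59, so that this order turned. A pair of its spots carry the same clone, and these were its lowest at both times. Srsf10, a splicing repressor after heat shock, had spots at 0.79, 0.51, -0.62 and 0.80 at 6 h and at 0.28, -1.24, -0.48 and 1.40 at 12 h, which overlap widely.

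The remaining SR genes stayed within 1.5-fold. Srsf1, the founding SR protein, stood at 0.41 with 4 of 4 spots above 0 at 6 h and at -0.05 with spots on both sides at 12 h. Srsf6 stood at 0.15 and -0.26, Srsf11 at -0.07 and -0.30 over 5 spots, and Srsf12 at -0.09 and -0.28 on 1 spot. In all, 4 of 8 Srsf genes (50%) were higher and none lower at 6 h, against 18.2% and 31.3% of all genes. At 12 h, 2 (25%) were higher and 1 (12.5%) lower, against 24.4% and 33.1%, so the higher calls were near the background. Without centring 1 was higher and none lower at 6 h, and none was higher and 4 were lower at 12 h.

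**Figure D3:**
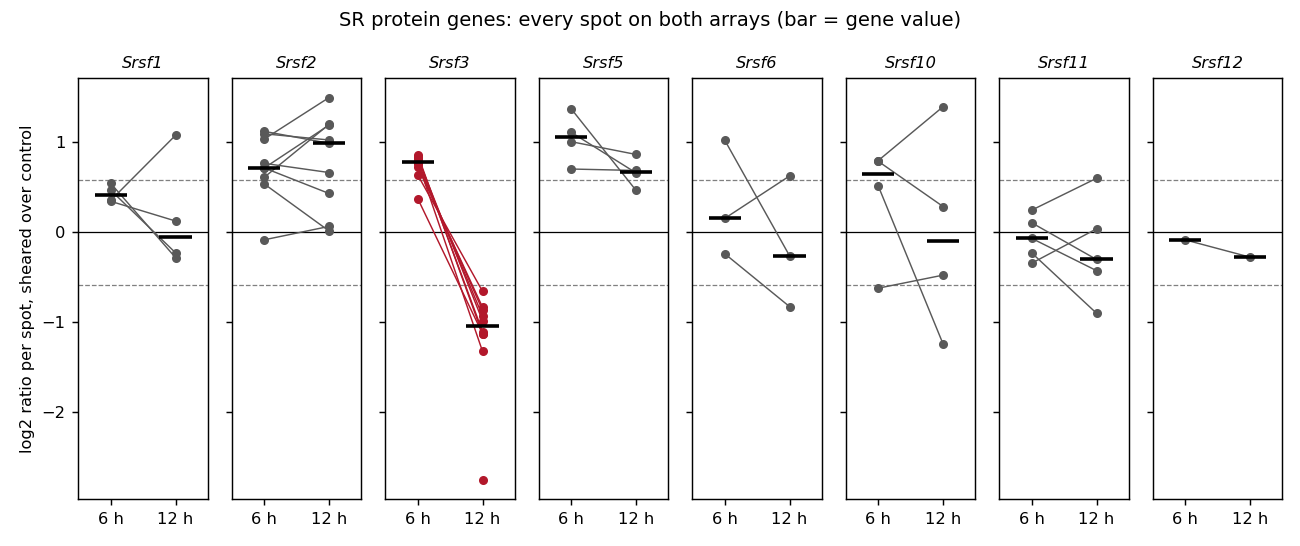
Log2 ratio of sheared over control (y axis) of every spot of the 8 SR protein genes at 6 h and 12 h (x axis); lines join the values of 1 spot, black bars are gene values and dashed lines mark 1.5-fold. The 9 Srsf3 spots measured at both times all go from above 0 to below 0, whereas in the 6 other genes with several spots the ranges of the times overlap.

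Promoter sequence gives a view of the Sm genes and Srsf3 that the rule did not use. A promoter was found for 59 of the 67 genes in the RefSeq table of GRCm38.p6, and the 150 bases before the first listed start of each were searched on both strands. The 4 Sm genes that stood highest at 12 h are shown beside Srsf3, 5′ to 3′ on the gene's strand, ending at the base before the start. Capitals mark 3 motifs in either orientation, which do not overlap here. CGGAAG is the core bound by ETS factors. The box bound by NF-Y is CCAAT. A classical TATA box reads TATAAA.
Snrpe, chr1:133610281-133610430, minus strand: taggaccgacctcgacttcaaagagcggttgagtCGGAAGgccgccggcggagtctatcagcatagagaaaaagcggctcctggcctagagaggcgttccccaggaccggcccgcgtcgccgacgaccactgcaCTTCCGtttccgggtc
Snrpd2, chr7:19149688-19149837, plus strand: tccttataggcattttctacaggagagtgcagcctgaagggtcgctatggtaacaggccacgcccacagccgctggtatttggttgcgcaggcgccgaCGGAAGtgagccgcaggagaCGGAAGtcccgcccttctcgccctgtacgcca
Snrpg, chr6:86371390-86371539, plus strand: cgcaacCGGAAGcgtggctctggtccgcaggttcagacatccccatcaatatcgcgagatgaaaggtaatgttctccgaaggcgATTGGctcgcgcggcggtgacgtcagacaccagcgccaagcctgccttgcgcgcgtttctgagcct
Snrpf, chr10:93589659-93589808, minus strand: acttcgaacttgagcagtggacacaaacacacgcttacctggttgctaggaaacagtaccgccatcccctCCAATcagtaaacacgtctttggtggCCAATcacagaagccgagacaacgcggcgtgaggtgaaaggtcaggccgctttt
Srsf3, chr17:29032510-29032659, plus strand: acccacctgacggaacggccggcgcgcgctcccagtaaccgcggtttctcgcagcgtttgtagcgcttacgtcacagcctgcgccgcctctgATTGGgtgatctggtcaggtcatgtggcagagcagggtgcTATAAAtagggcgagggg

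The Sm promoters shown hold no TATAAA, which was found in only 4.79% of promoters of measured genes, and Srsf3 holds 1. CCAAT was found on both sides, with 1 in Srsf3, 1 in Snrpg and 2 in Snrpf. Across the classes, CGGAAG was found in 7 of 9 Snrp, 5 of 6 Sf3, 5 of 10 Prpf, 3 of 10 Lsm, 2 of 8 Srsf and 3 of 16 Hnrnp promoters, against 10.5% of all 27025 promoters and 18.4% of those of measured genes. CCAAT was found in 11 of 16 Hnrnp promoters, 5 of 10 Prpf, 3 of 8 Srsf, 3 of 10 Lsm, 2 of 9 Snrp and 1 of 6 Sf3, against 25.3% of all promoters and 28.4% of those of measured genes. TATAAA was found in 3 of the 59, of which 2 were Srsf genes, against 8.08% of all promoters and 4.79% of those of measured genes. Of the other motifs searched, TCTCGCG was found in 5 of the 59, against 1.70% of all promoters and 3.36% of those of measured genes. The E-box CACGTG was found in 4, against 4.30% and 5.90%. The polypyrimidine motif CTCTTTC was found in 1, against 3.86% and 3.42%, CTTTTCC in 2, against 4.04% and 3.96%, and the NRF1 palindrome in none, against 0.655% and 1.27%. The 8 motifs were chosen after the values had been seen, and a match is not a site of binding.

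Most Hnrnp genes lay slightly above the array median, with quartiles of 0.26 and 0.54 at 6 h and of -0.008 and 0.58 at 12 h. Single genes ranged from -1.031 to 0.981 at 6 h and from -1.195 to 1.486 at 12 h. At 6 h, 16 of 18 were above 0, against 4622 of all 10346 genes. Of the 18, 4 (22.2%) were at least 1.5-fold higher and 1 (5.56%) lower, against 18.2% and 31.3% of all genes. At 12 h, 13 were above 0, against 4753 of all 10731 genes. At that time 5 (27.8%) were higher and 1 (5.56%) lower, against 24.4% and 33.1%. The higher calls were thus near the background, and the lower calls below it. Without centring 9 were above 0 at 6 h and 7 at 12 h, with 2 higher and 2 lower and then 2 higher and 4 lower. Their pooled SD between spots was the smallest of the classes, 0.288 at 6 h and 0.383 at 12 h.

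Hnrnpc, which binds uridine tracts and guards against the use of cryptic exons, was the highest hnRNP gene at both times, except that with print blocks centred Hnrnpa1 stood above it at 12 h, at 1.61 against 1.36. Its 7 spots lay between 0.41 and 1.42 at 6 h and between 1.27 and 1.71 at 12 h, with gene values of 0.98 and 1.49 (2.80-fold), so 2 of the 7 spots at 6 h reached the 12 h range. Hnrnpa1, a splicing repressor, stood at 0.94 and 1.25 on 1 spot. Its transcript has many processed copies, and 3 further spots assigned to it together with another symbol stood between 0.23 and 0.70 at 6 h and between 0.51 and 0.70 at 12 h. Hnrnpl, a reader of CA repeats, stood at 0.52 and 0.73 at 6 h and at 0.91 on both spots at 12 h. Hnrnpab stood at 0.51 and 0.97 over 5 spots, and Hnrnpk, at 0.31 and 0.585 over 6 spots, sat on the threshold at 12 h.

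Hnrnpul2, a nuclear matrix relative of Hnrnpu, was the lowest. Its spots stood at -0.67, -1.03 and -1.33 at 6 h and at -1.43, -1.20 and -0.59 at 12 h, all below 0 and overlapping between times. Its paralog Hnrnpul1 stood at 0.64 and then -0.53 on 1 spot, the most negative difference between times in the class. Hnrnpd, the AU-rich element binder AUF1, had spots at 0.23 and -0.87 at 6 h and at 0.26 and -0.91 at 12 h. This pair of spots disagreed in the same way on both arrays. Hnrnpa3 stood at 0.25 and -0.14 over 4 spots, and the abundant Hnrnpu at 0.31 and 0.13 over 7 spots. The other 8 Hnrnp genes lay between 0.18 and 0.55 at 6 h and between -0.05 and 0.56 at 12 h.

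Between the 2 times the classes differed in direction. All 11 Snrp genes stood higher at 12 h than at 6 h, against 56.6% of all genes, and 7 of 8 Srsf genes stood lower, against 43.4%. Without centring, and with equal spread, 10 of the 11 Snrp genes did so, and with print blocks centred 6 of the 8 Srsf genes. The median difference of 12 h minus 6 h was 0.66 for Snrp, -0.40 for Srsf, 0.05 for Sf3, -0.01 for Hnrnp, -0.07 for Lsm and -0.08 for Prpf, against 0.12 for all genes. Over all 67 genes it was 0.02, and it turned to -0.138 without centring and to -0.0394 with equal spread. A difference of at least 1.5-fold upward was seen in 10 of the 67 genes, 6 of them Snrp, against 24.9% of all genes, and downward in 8, against 17.4%. With equal spread the Snrp median was 0.337 and the Srsf median -0.46, and the Sf3 median turned to -0.0385. The Sf3 median also turned without centring, to -0.105, and the Hnrnp median turned to 0.0181 with print blocks centred and to 0.0311 with equal spread. The largest differences were -3.09 for Lsm11, 2.58 for Snrpa, -1.83 for Srsf3, 1.66 for Prpf18 and 1.64 for Lsm7, of which all but that of Srsf3 rest on 1 or 2 spots. Among genes with 4 or more spots, Sf3b1 followed Srsf3, at -0.98.

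**Figure D4:**
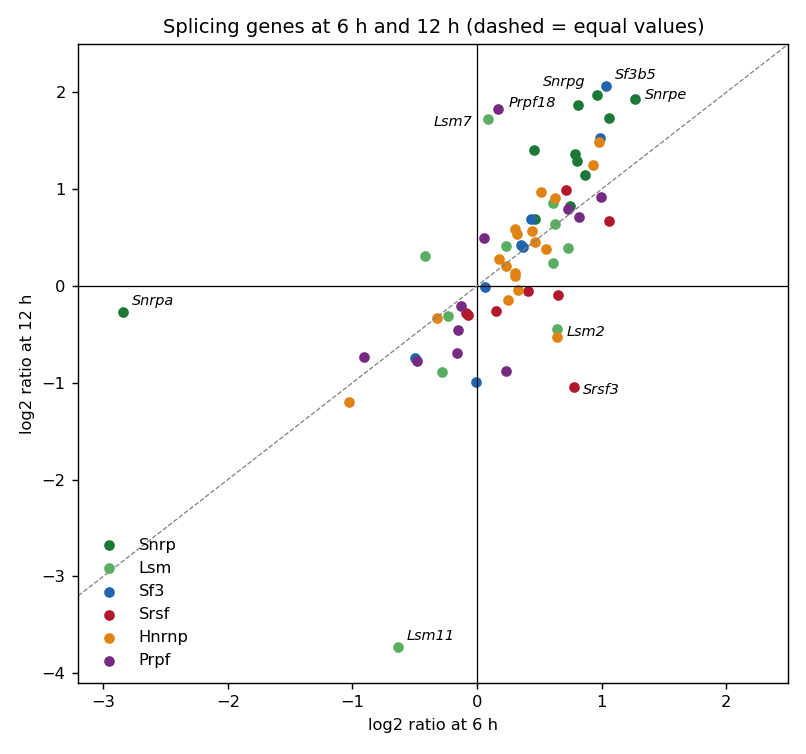
Log2 ratio of sheared over control at 6 h (x axis) and 12 h (y axis) for the 67 splicing genes, coloured by class; the dashed line marks equal values. The Snrp genes lie above the line, and Srsf3 (0.78, -1.05) lies at the lower right, apart from the other genes.

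Splicing proteins outside the symbol rule were also mixed. The counts of these related lists stand beside 18.2% higher and 31.3% lower of all genes at 6 h, and 24.4% and 33.1% at 12 h. Of 48 measured further spliceosome proteins, 13 (27.1%) were higher and 5 (10.4%) lower at 6 h and 19 (39.6%) were higher and 5 (10.4%) lower at 12 h, with medians of 0.31 and 0.30. Without centring they were 3 higher and 11 lower at 6 h and 9 higher and 16 lower at 12 h. Phf5a, a small SF3b subunit that the rule does not name, stood at 1.36 and 1.64, Snu13, which binds U4 snRNA, at 1.03 and 1.57 over 5 spots, and Cwc22, which loads the exon junction complex, at -1.04 and -2.19 on 1 spot. Of 20 exon junction, decay and export factors, 7 (35%) were higher and 2 (10%) lower at 6 h and 6 (30%) were higher and 4 (20%) lower at 12 h. Without centring they were 5 higher and 4 lower, and then 3 higher and 7 lower. The exon junction protein Rbm8a stood at 1.34 and 2.38, its associate Sap18 at 1.08 and 2.03 over 6 spots, and the export adaptor Alyref at 1.36 and 1.09 on 1 spot. Of 12 genes for snRNP assembly, 4 were higher and 1 lower at 6 h and 4 higher and 3 lower at 12 h, and without centring 1 was higher and 3 lower at both times. Wdr77, which helps to methylate Sm proteins, stood at 1.28 and 1.02, and Gemin5, which recognises snRNA, at -2.25 and -1.85 on 1 spot. Coil, the scaffold of Cajal bodies, stood at -0.56 and -1.94.

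Other regulators of splice choice were near the background at 6 h. Of 36 measured genes, 5 (13.9%) were higher and 12 (33.3%) lower at 6 h, against 18.2% and 31.3% of all genes. At 12 h, 8 (22.2%) were higher and 17 (47.2%) lower, against 24.4% and 33.1%. Their medians of -0.17 and -0.48 stand beside -0.11 and -0.14 for all genes. Mbnl3 stood at -1.41 and -2.22 on 1 spot, and Celf2 at -1.13 and -2.14 over 4 spots, with probe SDs of 0.14 and 0.34. Rbfox1 stood at -2.84 and -0.44, with a probe SD of 3.77 at 6 h. Ptbp1, Rbm3 and Ybx1, named after their values were seen, stood on the other side, at 1.45 and 1.79, 0.89 and 1.44, and 0.46 and 1.28. Of 15 cleavage and polyadenylation factors, 1 (6.67%) was higher and 3 (20%) lower at 6 h and 1 (6.67%) was higher and 4 (26.7%) lower at 12 h, both below the shares of all genes. Their leading members were Cstf3 at -0.98 and -0.91, Papola at -0.63 and -0.75, and Pabpn1 at 0.84 and 0.50.

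The 11 genes for kinases, a phosphatase and importins that act on SR proteins were close to the background. At both times 3 (27.3%) were higher and 4 (36.4%) lower. Dyrk1a stood at -1.33 and -2.25 on 1 spot, the importin Tnpo1 at -1.27 and -2.001 over 4 spots and the kinase Srpk2 at -1.11 and -1.03. The 3 higher at 6 h were the CDC-like kinases Clk1 at 1.30 over 7 spots, Clk3 at 1.12 and Clk4 at 0.77, named after their values were seen. At 12 h these stood at 0.82, 0.51 and 0.58.

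The Snrp genes were not alone in their direction. The 66 ribosomal protein genes had medians of 1.16 at 6 h and 2.20 at 12 h, and 64 of 66 stood higher at 12 h. The 45 proteasome subunit genes had medians of 0.79 and 1.28, close to the Snrp values of 0.80 and 1.37. The Zfp genes lay at -0.27 over 139 measured at 6 h and at -0.67 over 146 at 12 h. None of these differences could be tested.

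Gene span moved with the values too. Across the 67 genes, Spearman's rho between genomic span and the log2 ratio was -0.37 at 6 h and -0.43 at 12 h, against -0.32 and -0.40 over 10254 genes, as a description of genes that share the arrays. Splicing genes under 5 kb had medians of 0.63 at 6 h and 0.81 at 12 h over 8 genes, and those of 30 kb or more 0.08 and -0.61 over 10. All genes under 5 kb had medians of 0.21 and 0.24, and those of 30 kb or more -0.44 and -0.60. Sf3b5, the highest at 12 h, spans 0.734 kb and Sf3b1, among the lowest, 42.3 kb. That pair was named after the values were seen, and other genes lay apart from this order. Hnrnpc, at 30.7 kb, and Prpf18, at 30.1 kb, read higher at 12 h. The genes below Sf3b1 at 12 h had shorter spans: Lsm11 of 16.7 kb, Hnrnpul2 of 14.7 kb and Srsf3 of 10.7 kb. The part of gene span in the class differences was not tested.

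Cell type markers were read only as ratios, which do not give a marker's level, so the labelled cell type could not be checked by level. Of the tendon markers, 6 of 10 were measured, with medians of 0.27 and -0.20. Medians were 0.42 and 0.80 for 6 of 10 leukocyte markers, -0.45 and -0.61 for 4 of 7 endothelial, 0.30 and 0.31 for 5 of 8 muscle and -0.57 and -0.32 for 7 of 8 epithelial markers. The part of other cells in the values above was not tested.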

How the data were processed

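The deposited table holds 1 log2 ratio per spot and array, made by the authors; the scanner, background correction, normalization and spot filter are not given in the sources used here. Per the labels, Cy3 carried control and Cy5 sheared RNA. The base of 2 is assumed; the range of -8.48 to 5.48 does not fix it. Of 42624 spots, 39776 were measured at 6 h and 41717 at 12 h; intensities were not used here, so depth is unknown, and 1 array per time limits the precision. Gene symbols came from the platform annotation in GEO: 21701 had 1 symbol, 1124 several and 19799 none. Gene IDs were checked against the RefSeq table of GRCm38.p6, which gave genomic span, and 0 symbols changed. Each array was centred on its median, and the spots of a gene with 1 symbol were reduced to their median (pandas 2.3.3). No test was made. The gene summary and calls were run on simulated data with shifts far past the threshold and less noise between spots than on these arrays. That run does not show how well smaller differences are called. Genes given spot by spot are the 3 highest and 3 lowest of each class by the mean of both arrays, the largest differences between times in each direction, and those past 1.5-fold on opposite sides; related lists give the 3 with the largest mean absolute value. Other members are given by value or range, and some by their spots. Members, lists and rules were chosen with earlier results of these data known. The alternatives were no centring, mean of spots, 2 or more spots, genes on both arrays, spots with several symbols, centred print blocks of 900 spots, equal spread, updated symbols and a 2-fold threshold.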

Additional observations from a re-analysis of the deposited data

Results flagged for a closer look

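Srsf3 was at least 1.5-fold higher in the sheared cells at 6 h (0.78, 9 spots) and at least 1.5-fold lower at 12 h (-1.05, 10 spots), a difference of -1.83 on the log2 scale. It is listed because its values at the 2 times lie on opposite sides of 0. The difference was not tested, since each time point has 1 array.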

How the results depend on the processing

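The arrays carry no replicate, so the only yardstick for the alternatives was the spread between spots of single genes (0.402 at 6 h, 0.582 at 12 h). It exceeded the size of the centring shift at both times (-0.323 and -0.479), so it says nothing of how class medians depend on centring. Without centring the 12 h median was 1.26 for the Sm ring, -0.659 for Srsf and -0.686 for Prpf, against -0.619 over all genes. The class medians that changed sign are given above. The only class medians past 1.5-fold were those of Snrp, which ranged from 0.478 to 0.904 at 6 h and from 0.888 to 1.37 at 12 h. Both main values exceed the centring shift, so leaving out centring could not turn their sign. Updated symbols and genes on both arrays could not move them, as no symbol changed and all 67 genes were on both arrays. Counts over all 67 genes moved by over 1.5 times under 2 settings. Without centring they were 9 higher and 9 lower at 6 h and 14 higher and 21 lower at 12 h, because every value drops by the array median. With a 2-fold threshold they were 4 higher and 2 lower at 6 h and 14 higher and 3 lower at 12 h. Shares of all genes past 2-fold are not given here, so these counts too have no background beside them. For Srsf3, the difference of 12 h minus 6 h ranged from -1.98 to -1.81. It was the lowest among genes with 5 or more spots except with several symbols kept or with equal spread, where it was number 2. The genes past 1.5-fold on opposite sides in that direction numbered 0 without centring, 2 with several symbols kept, 2 with print blocks centred and 3 with equal spread. The comparison with protein length was not run, as protein sequences were not used here; genomic span took its place after the data were seen. No paired analysis was possible because each time point has 1 array. Signal over background was not used here, so dim spots could not be set apart.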
